A study of Petunia x hybrida with 10 samples.

Results

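The regions described here are 421 places on the petunia genome scaffolds where all 4 libraries titled N6-methyladenosine (m6A) had a peak and where no recurrent N1-methyladenosine (m1A) region shared a base with it. They were chosen by their peaks: peaks of the m6A-titled lists were merged wherever they shared 1 bp or more, regions with a peak in all 4 lists were kept (558 of 3280 merged regions), and those that shared any bp with a merged m1A region seen in 2 or more of 6 m1A lists (137 regions) were set aside. The 421 are 75.4% of the 558 core regions and 12.8% of all merged m6A-titled regions. Presence in the 4 m6A-titled lists and absence of a recurrent m1A overlap were therefore fixed by the choice and are no result.

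The tissue was the corolla (the petals) of petunia cultivar Mitchell, and the m6A-titled libraries came from flowers given ethylene at 2 µl/l for 16 h (n = 2) or kept in air for 16 h (n = 2). The m1A libraries had the same treatments, with 3 from ethylene and 3 from air. Whether the replicate libraries were made from separate plants is not in the labels, so the p-values below cover the spread between libraries only, and part of that spread may be technical. An antibody against m1A is named in the protocol text for these same m6A-titled samples, so m6A below refers to the title of the libraries and not to a verified target.

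In messenger RNA, m6A is an internal mark laid down by a methyltransferase complex that includes METTL3-type subunits, and in plants it is known to lie mostly near the stop codon and in the 3′ untranslated part of transcripts. Reader proteins of the YTH family bind it and affect the stability and processing of the transcript. The m1A mark sits on the face of the base that pairs with other bases and is best known from transfer RNA. Ethylene is the hormone that hastens petal senescence in petunia.

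Each list gave a scaffold, a start, an end and a score per peak, and the m6A-titled lists also gave a strand. The m6A-titled lists held 1451 to 1704 peaks and the m1A lists 1013 to 17573. The sequencing depth of each library is unknown, so list length and depth cannot be told apart. Among the m6A-titled libraries ethylene 1 stood apart: of 322 regions without recurrent m1A that were found in exactly 3 lists, 121 were missing from ethylene 1, 64 from ethylene 2, 84 from air 1 and 53 from air 2. The ethylene 1 list was nevertheless the longest, at 1704 peaks. Its median score was 55.1, against 86.7 in ethylene 2, 83.2 in air 1 and 99.7 in air 2, on a scale not known to be common. Without ethylene 1, 542 regions met the rule in the 3 other lists. Among the m1A libraries ethylene 2 had the shortest list, and without it the rule gave 422 regions.

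Each of the 421 regions held exactly 1 peak per list, and most of these peaks had the same borders to the base. Both edges were identical in all 4 lists in 303 regions, or 72.0% (95% exact binomial interval 67.4 to 76.2%, counting error only). A further 49 regions shared only the lower coordinate and 55 only the upper one, and 14 shared neither. Read along the strand, the 5′ edge was identical in 362 regions and the 3′ edge in 348. The 118 regions with an unequal edge were wider, with a median merged width of 395.5 bp against 247 bp for those with identical edges, and their widest and narrowest peaks differed by a median of 66.5 bp and at most 633 bp. Where exactly 3 lists shared an edge, the odd one out was ethylene 1 at 24 of 41 edges, ethylene 2 at 4, air 1 at 9 and air 2 at 4. Identical edges were found in 118 of the 137 core regions that had a recurrent m1A overlap (86.1%, interval 79.2 to 91.4%), a difference that was not tested.

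The merged regions were 8 to 1743 bp wide, with a median of 286 bp and quartiles of 174 and 417 bp. The widest was Peaxi162Scf00060 1219149 to 1220891 on the minus strand (1743 bp), whose peak had this full width in all 4 lists and scores of 2364 to 3100. Next came Peaxi162Scf00602 495767 to 497441 (minus, 1675 bp), whose edges differed between lists, Peaxi162Scf00691 535575 to 537215 (minus, 1641 bp), Peaxi162Scf00160 507204 to 508811 (plus, 1608 bp) and Peaxi162Scf00445 995734 to 997146 (minus, 1413 bp). The Peaxi162Scf00160 and Peaxi162Scf00445 regions again had identical edges in every list. At the other end, Peaxi162Scf00071 1014811 to 1014818 (plus) spanned 8 bp, Peaxi162Scf00128 1384948 to 1384960 (minus) 13 bp and Peaxi162Scf00047 2329129 to 2329162 (minus) 34 bp. These 3 very short regions ranked high, with mean score percentiles of 97.7, 96.3 and 97.7. Peaxi162Scf00720 662491 to 662529 (plus, 39 bp) ranked low by comparison, at a mean percentile of 40.9, and Peaxi162Scf00404 718693 to 718736 (minus, 44 bp) stood at 97.7. Core regions with a recurrent m1A overlap had a median width of 383 bp, but a wider region is more likely to meet an m1A region, so the choice itself favours this difference.

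**Figure D1:**
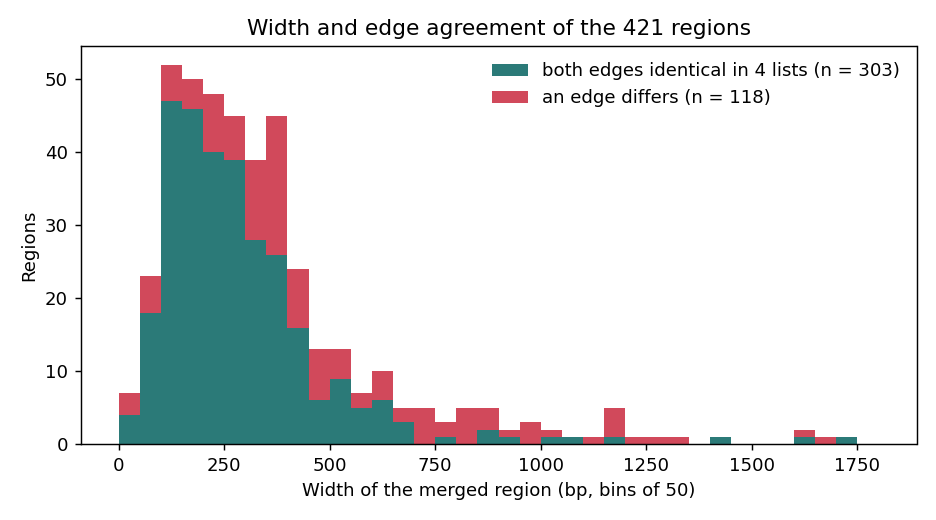
Histogram of merged width (x axis, bp in bins of 50) for the 421 regions, stacked by whether both peak edges were identical in the 4 lists (303) or an edge differed (118). Regions with identical edges make up most of the bars below 400 bp, and most regions wider than 700 bp have an unequal edge.

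Region widths were divisible by 3 more often than an equal split over the 3 remainders would give. Of the 421 widths, 188 were multiples of 3 (44.7%, 95% exact binomial interval 39.8 to 49.5%), 120 left a remainder of 1 (28.5%) and 113 a remainder of 2 (26.8%), where an equal split is 33.3%. The share was 45.2% in regions with identical edges and 43.2% in those with an unequal edge. It was not particular to these regions, at 48.9% in core regions with a recurrent m1A overlap and 42.3% in m6A-titled regions of 1 list. Across whole lists it was 41.7% in ethylene 1, 45.2% in ethylene 2, 44.7% in air 1 and 44.6% in air 2. In the m1A lists it was 34.3 to 37.3%. The most common width was 333 bp, in 6 of the 421 regions on 6 different scaffolds.

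Strand was given uniformly, with no region of mixed strand. The minus strand held 226 of the 421 regions (53.7%, 95% exact binomial interval 48.8 to 58.5%), close to the 53.0% of all merged m6A-titled regions and the 51.8% of core regions with a recurrent m1A overlap.

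The score that the authors' peak caller gave each peak has no stated scale, so it was ranked within each list, from 0 for the lowest to 100 for the highest. The 421 regions ranked in the upper part of each list, a description only, since recurrence was what chose them. Their median percentile was 73.5 in ethylene 1, 71.8 in ethylene 2, 72.1 in air 1 and 73.0 in air 2, and each list held a region under percentile 2. All 4 percentiles were above 50 in 221 regions (52.5%) and at or above 90 in 43 (10.2%), and all 4 were below 50 in 14. The lowest score was under 100 in 228 regions (54.2%). Ranks of 1 region moved between lists, with a median range over the 4 percentiles of 25.3 points and a maximum of 87.7. Over the 421 regions, Spearman correlations of percentiles between pairs of lists were 0.61 to 0.68, a description over regions that share the same 4 libraries. Rank had little relation to width (Spearman 0.07 between merged width and mean percentile over 421 regions).

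Core regions that did overlap recurrent m1A ranked higher in every list. The median percentile of the 421 regions was lower than that of the 137 overlapping regions by 12.4 points in ethylene 1 (73.5 against 85.9), 13.0 in ethylene 2 (71.8 against 84.7), 14.6 in air 1 (72.1 against 86.8) and 13.6 in air 2 (73.0 against 86.6). The mean difference of -13.4 points (SD 0.960 over 4 libraries) had the same sign in 4 of 4 libraries, yet 4 libraries cannot pass the threshold of 0.05 (exact two-sided sign-flip permutation p = 0.125, the smallest possible; adjusted p = 0.375 over 6 tests). Among regions 200 to 400 bp wide the difference was -13.7 points. Widths were not matched within that range, and the part of width was not tested.

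**Figure D2:**
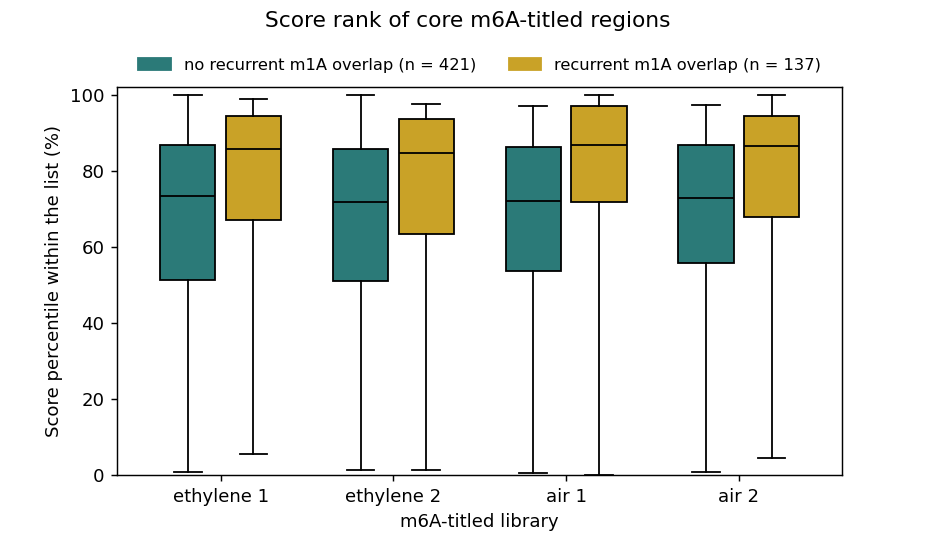
Score percentile within each m6A-titled list (y axis, %) for the 421 core regions without and the 137 with a recurrent m1A overlap, by library. Boxes show quartiles and median and whiskers the full range; the medians are 71.8 to 73.5 without overlap and 84.7 to 86.8 with it.

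The 10 regions of highest mean percentile were led by Peaxi162Scf00439 816094 to 816380 (minus, 287 bp), with scores of 3100 to 3222. Second was Peaxi162Scf01006 247459 to 247938 (minus, 480 bp), with scores of 3100 to 3151. Another 12 regions had a score of exactly 3100 in all 4 lists and tied behind them at a mean percentile of 97.7, and scaffold order decided which 8 are named. They were the 34 bp Peaxi162Scf00047 and 8 bp Peaxi162Scf00071 regions above, Peaxi162Scf00079 2315343 to 2315489 (plus, 147 bp), Peaxi162Scf00097 1289680 to 1289814 (plus, 135 bp), Peaxi162Scf00134 1460185 to 1460621 (plus, 437 bp), Peaxi162Scf00174 6497 to 6839 (minus, 343 bp), Peaxi162Scf00292 572323 to 572588 (minus, 266 bp) and Peaxi162Scf00332 74516 to 74651 (minus, 136 bp). The rank of a region at 3100 cannot be resolved further.

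The study's treatment comparison asked whether ethylene changed the marks of corolla RNA, and neither width nor rank of the 421 regions separated the treatments. Peaks had the same width in all 4 lists in at least the 303 regions with identical edges (72.0%), so median width had little room to differ. Median peak width was 274 bp in ethylene 1 and 285 bp in ethylene 2, against 274 bp in air 1 and 285 bp in air 2. Both treatments thus averaged 279.5 ± 7.78 bp (SD, n = 2 each), a difference of 0 (exact permutation p = 1, smallest possible 0.333; adjusted p = 1). The median score percentile averaged 72.6 ± 1.20 after ethylene and 72.5 ± 0.606 in air (SD, n = 2 each), a difference of 0.0792 points with overlapping libraries (exact permutation p = 1, adjusted p = 1). The sign of this small difference turned under several settings, for example to -3.57 points among peaks of score 100 or more. The raw scores had medians of 160.8 and 248 after ethylene and 270.0 and 346 in air, but the scale is not known to be common to the lists, so these are given as they stand.

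The ranks of single regions were also set side by side by treatment. Both ethylene percentiles lay above both air percentiles in 85 of the 421 regions (20.2%) and below them in 74 (17.6%). Over all 558 core regions the shares were 22.0% and 18.1%. The 421 are 75.4% of those 558, so nearness to that background was largely given. Of the 137 core regions with a recurrent m1A overlap, 38 (27.7%) lay above and 27 (19.7%) below, a difference that was not tested. The 85 include the 12 regions with a score of exactly 3100 in all 4 lists. That tied score ranked at 98.8 and 97.6 after ethylene and at 97.2 and 97.3 in air, so equal scores were counted as separated. Also among the 85 are the Peaxi162Scf00439 and Peaxi162Scf01006 regions above, at 3100 in both air lists and 1 ethylene list. Such ties enter the shares over the 558 and the 137 core regions as well. The largest positive difference among the 85 was at Peaxi162Scf00538 183016 to 183301 (minus, 286 bp), at percentiles of 82.4 and 67.2 after ethylene and 4.83 and 9.01 in air. Next came Peaxi162Scf00152 976651 to 976766 (minus, 116 bp), at 69.6 and 72.5 after ethylene and 12.9 and 17.1 in air. Both treatments gave these peaks the same edges, so their borders held while their rank differed. Peaxi162Scf00394 85436 to 85589 (minus), Peaxi162Scf00094 1161522 to 1161865 (minus) and Peaxi162Scf00341 710079 to 710575 (minus) followed, with mean differences of 48.2, 45.8 and 41.3 points. In the other direction Peaxi162Scf00244 457715 to 458000 (minus, 286 bp) stood at 7.42 and 5.48 after ethylene and 66.6 and 76.3 in air. Peaxi162Scf00763 475054 to 475500 (plus, 447 bp) stood at 23.4 and 13.3 after ethylene and 70.4 and 70.7 in air. Peaxi162Scf00791 167754 to 168060 (minus), Peaxi162Scf00011 12137 to 12520 (minus) and Peaxi162Scf00252 407054 to 407289 (minus) followed, with differences of -48.0, -47.3 and -46.3 points. No single region has a test here, since 2 libraries against 2 cannot give a p under 0.333, and a rank also moves when other peaks of its list do.

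**Figure D3:**
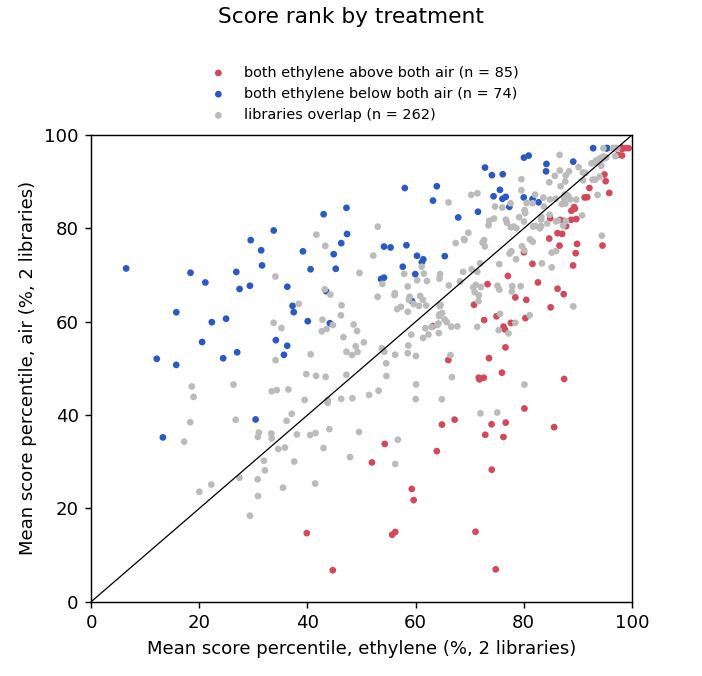
Each point is 1 of the 421 regions, with its mean score percentile after ethylene (x axis, %, 2 libraries) and in air (y axis, %, 2 libraries), and the line marks equality. Colours mark the 85 regions whose ethylene libraries both lay above both air libraries, the 74 below them, and the remaining regions in which the libraries overlapped. The 85 include 12 regions tied at a score of 3100 in all 4 lists.

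Width could separate the treatments only in the 118 regions with an unequal edge, since 303 of the 421 had identical edges in all 4 lists. Among these 118, both ethylene peaks were wider than both air peaks in 5 (1.19% of the 421, against 1.08% of the 558 core regions). They were narrower in 20 (4.75%, against 3.94%). Identical edges, found in 75.4% of the 558 core regions, keep all these shares low. Of the 137 core regions with a recurrent m1A overlap, 1 was wider and 2 were narrower. The narrower ones were led by Peaxi162Scf00715 71304 to 72196 (plus), whose peaks were 590 and 613 bp after ethylene and 889 and 893 bp in air. The next 4 were a pair on Peaxi162Scf00057 described below, Peaxi162Scf00691 535575 to 537215 (1327 and 1547 bp after ethylene, 1618 and 1641 bp in air) and Peaxi162Scf00000 2862657 to 2863420 (plus; 387 and 732 bp after ethylene, 759 and 742 bp in air). The wider ones were Peaxi162Scf00640 384820 to 385741 (minus; 843 and 797 bp after ethylene, 549 and 601 bp in air), Peaxi162Scf00437 500448 to 501664 (plus; 1016 and 1139 bp after ethylene, 835 and 881 bp in air), Peaxi162Scf00643 452194 to 453377 (plus), Peaxi162Scf01044 56035 to 56253 (plus) and Peaxi162Scf00224 212139 to 212463 (minus). Ethylene 1 gave the narrowest or joint narrowest peak in 61 of the 118 regions with an unequal edge, against 23 for ethylene 2, 33 for air 1 and 13 for air 2, and the part of that library in the counts was not tested.

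The 421 regions were thinly spread. They lay on 287 scaffolds, of which 205 held a single one and 4 held the most, 6 each. The first 3 of these by name were Peaxi162Scf00015, Peaxi162Scf00047 and Peaxi162Scf00129. On Peaxi162Scf00015 the regions began at 302484, 662705, 1007248, 1166527 and 2185360 on the minus strand and 2733221 on the plus strand. On Peaxi162Scf00047 they began at 172820, 1043691, 1585605 and 2329129 (minus) and at 695133 and 956888 (plus). On Peaxi162Scf00129 they began at 738089, 1028830, 1030234 and 1252377 (minus) and at 832551 and 1663553 (plus). These 18 regions had mean percentiles from 45.1 to 97.7, so regions on these 3 scaffolds covered a wide span of ranks.

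Among 134 pairs of neighbours on a scaffold, the gap had a median of 261864 bp and was never below 1128 bp. Core regions of any kind came closer, with 3 of 203 neighbouring pairs within 1 kb. All 9 pairs of the 421 regions between 1 and 2.5 kb apart were on 1 strand. Strands matched in 9 of 14 pairs from 2.5 to 20 kb apart and in 39 of 90 pairs over 100 kb apart. The 5 closest pairs were on Peaxi162Scf00026 (2990468 to 2990673 and 2991802 to 2992183, 1128 bp apart), Peaxi162Scf00627 (78646 to 78829 and 79964 to 80028, 1134 bp), Peaxi162Scf00129 (1028830 to 1029069 and 1030234 to 1030729, 1164 bp), Peaxi162Scf01018 (373539 to 373696 and 375171 to 375254, 1474 bp) and Peaxi162Scf00040 (1203140 to 1203476 and 1205046 to 1205204, 1569 bp). The same strand at such spacing was general to the lists, since over all merged m6A-titled regions it held for 131 of 135 neighbouring pairs from 1 to 2.5 kb apart. Another merged m6A-titled region lay within 1 kb of 24 of the 421 (5.70%). Of these 24 neighbours, 10 were found in 1 list, 10 in 2, 3 in 3 and 1 in 4, and 23 were on the same strand.

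Regions of the same width on the same scaffold were found as 2 pairs, which were singled out after their values were seen. On Peaxi162Scf00057, regions 196897 to 197883 and 217389 to 218375 (both plus, both 987 bp) began 20492 bp apart. Their peaks measured 800 bp in ethylene 1, 602 bp in ethylene 2 and 987 bp in air 1 in both regions, and 940 and 903 bp in air 2. On Peaxi162Scf00026, regions 2984493 to 2984874 and 2991802 to 2992183 (both minus) were 382 bp wide in all 4 lists and began 7309 bp apart. No sequence was read, so whether reads were shared between near-identical copies was not tested and the values of these 4 regions are uncertain.

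The absence of m1A from the 421 regions holds for recurrent m1A only, and only for the scores that were listed. Scores began at 13.01 to 13.1 in the m6A-titled lists and at 100 to 102.35 in the m1A lists. The scale is not known to be common to them, and m1A peaks of lower score cannot be seen here. An m1A region seen in a single list overlapped 164 of the 421 regions (39.0%), and 257 (61.0%) met no m1A region of any list. The shared stretch had a median of 180.5 bp, or 48.0% of the region's width, and 20 of the 176 overlaps matched both edges exactly. The m1A regions were from air lists alone at 124 regions, from ethylene lists alone at 34 and from lists of both treatments at 6. By list, m1A peaks overlapped 25, 2 and 13 regions in ethylene 1, 2 and 3, and 69, 49 and 17 in air 1, 2 and 3. The lists differed in length, and per 1000 m1A peaks these counts were 3.32, 1.97 and 1.61 for ethylene and 4.43, 2.79 and 2.51 for air. These ranges overlap between the treatments, and the rule limits them, since it removed every m1A region of 2 lists.

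Of the 137 core regions left out, 76 met m1A regions of exactly 2 lists and none of more. The smallest shared stretches were 5 bp at Peaxi162Scf00294 363447 to 363451, where the m1A region had the same bounds, and 45 bp at Peaxi162Scf00152 228052 to 228330. Just inside, Peaxi162Scf00439 816094 to 816380 lay 12 bp from an m1A region of 2 lists (air 2 and ethylene 3) at 816393 to 816573. It was followed by Peaxi162Scf00152 1225733 to 1226101 (82 bp), Peaxi162Scf00051 1225311 to 1225388 (101 bp), Peaxi162Scf00271 658094 to 658330 (107 bp) and Peaxi162Scf00362 1037193 to 1037423 (122 bp). The top-ranked of the 421 regions is therefore also the one closest to recurrent m1A.

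A recurrent m1A region lay on the same scaffold for 407 of the 421, at a median gap of 9893 bp (quartiles 2626 and 46570 bp). It was within 1 kb for 35 regions (8.31%), within 5 kb for 153 (36.3%) and beyond 100 kb for 56 (13.3%). The most isolated from recurrent m1A were Peaxi162Scf00210 1554856 to 1554958 (plus), 919811 bp from the nearest, and Peaxi162Scf00202 424970 to 425190 (minus), 750227 bp from it. Peaxi162Scf00042 581660 to 581743 (plus), Peaxi162Scf00061 1515546 to 1515946 (minus) and Peaxi162Scf00926 589157 to 589322 (plus) lay 701378, 588176 and 549384 bp away. The last of these had a mean percentile of 96.6, so a high rank occurred without recurrent m1A nearby. These gaps leave out m1A regions of a single list. Such a region overlapped the Peaxi162Scf00202 region (air 3) and the Peaxi162Scf00061 region (air 1).

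Recurrent m1A lay more often on the 3′ side of the 421 regions than on the 5′ side, read by the m6A-titled strand. The median gap was 18899 bp on the 3′ side (363 regions with one) and 45132 bp on the 5′ side (348 regions). Within 5 kb, 103 regions had recurrent m1A on the 3′ side only, 39 on the 5′ side only and 11 on both. The nearest one within 5 kb was on the 3′ side in 105 of 153 regions, or 68.6% (95% exact binomial interval 60.6 to 75.9%), with 63.2% among plus-strand regions and 72.9% among minus-strand regions. By distance, the 3′ side had 9 of 17 nearest regions under 500 bp, 12 of 18 from 500 to 1000 bp, 25 of 39 from 1 to 2 kb, 59 of 79 from 2 to 5 kb and 35 of 52 from 5 to 10 kb. Farther out the sides came closer to even or turned, at 22 of 39 from 10 to 20 kb, 32 of 72 from 20 to 50 kb and 25 of 56 beyond 100 kb. The bins below 1 kb hold under 20 regions each. A lean to the 3′ side among recurrent m6A-titled regions as a whole was already known when these regions were chosen, so it is no independent support.

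**Figure D4:**
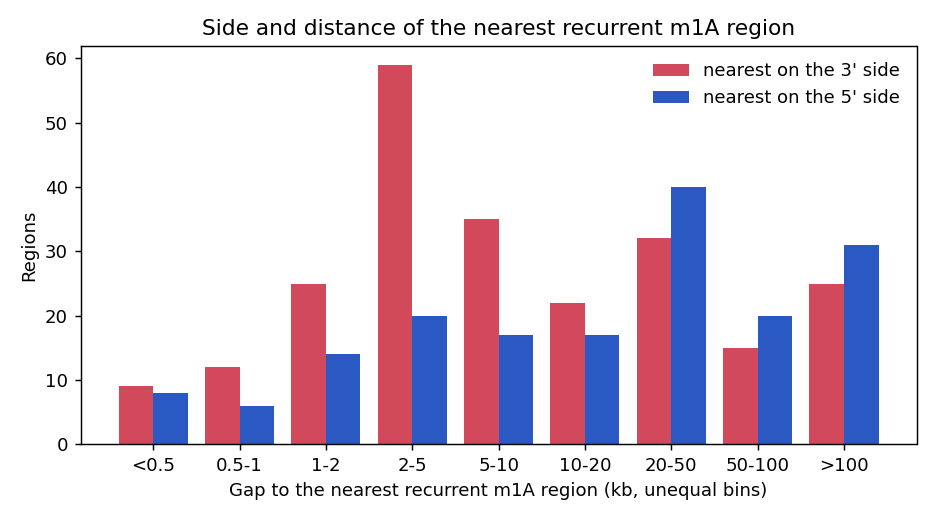
Number of the 421 regions (y axis) by the gap to the nearest recurrent m1A region (x axis, kb, unequal bins) and by its side on the m6A-titled strand. The 3′ bars exceed the 5′ bars most from 2 to 5 kb (59 against 20), and the order turns beyond 20 kb.

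To ask whether this side differed from that of weakly recurrent regions, the nearest m1A peak within 5 kb was taken separately in each m1A list. The 3′ share of the 421 regions was 64.0% in ethylene 1 (75 regions), 85.7% in ethylene 2 (7 regions), 71.9% in ethylene 3 (96), 69.5% in air 1 (141), 66.5% in air 2 (161) and 76.8% in air 3 (82). For 1448 m6A-titled regions of 1 list without recurrent m1A overlap it was 59.4, 45.2, 60.1, 57.1, 61.5 and 58.6% in the same order. The share was higher for the 421 regions in 6 of 6 lists, by a mean of 15.4 points (72.4 ± 7.89% against 57.0 ± 5.97%, SD, n = 6 lists; exact two-sided sign-flip permutation p = 0.0312, the smallest possible, adjusted p = 0.188 over 6 tests). It did not pass the threshold after adjustment. Against recurrent m1A regions, the 3′ share was 68.6% (105 of 153) for the 421 regions, and 75.3% (55 of 73, 95% exact binomial interval 63.9 to 84.7%) for core regions with a recurrent m1A overlap, taking the next one that shared no base. That difference was not tested. Ethylene 2 rested on 7 regions, and without it the mean difference was 10.4 points, for which 5 lists allow no exact permutation p under 0.0625. The 6 lists are set against the same m6A-titled regions, so they do not repeat the choice of regions.

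**Figure D5:**
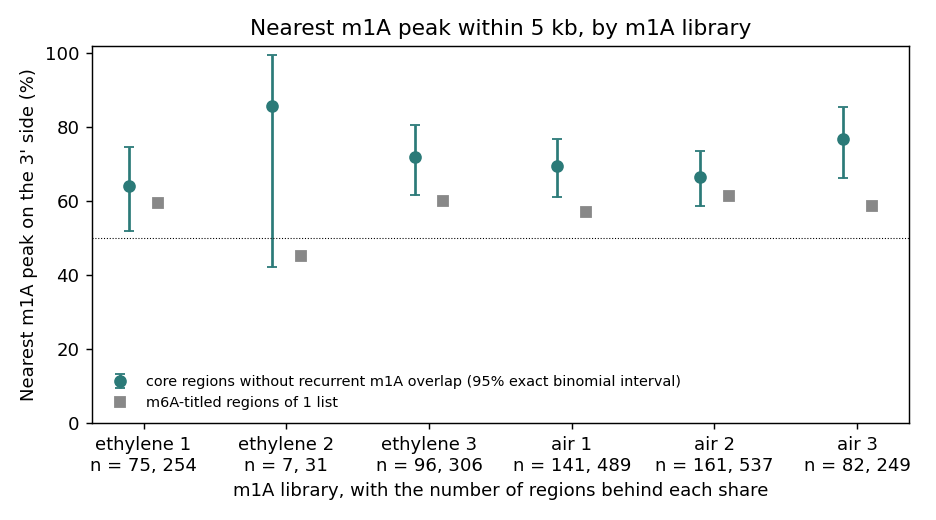
Share of regions whose nearest m1A peak within 5 kb was on the 3′ side (y axis, %) in each m1A library, for the 421 core regions (circles, with 95% exact binomial intervals) and for m6A-titled regions of 1 list (squares). The circle lies above the square in all 6 libraries, from 64.0 against 59.4% in ethylene 1 to 85.7 against 45.2% in ethylene 2, which rests on 7 and 31 regions.

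Neither the side nor the distance of m1A peaks passed a test between treatments under any setting, and so few libraries could not pass one. The 3′ share averaged 73.9 ± 11.0% with ethylene lists and 70.9 ± 5.33% with air lists (SD, n = 3 each; exact permutation p = 0.8, smallest possible 0.1, adjusted p = 1), and the difference of 2.93 points became -2.99 without ethylene 2. The median gap to the nearest m1A peak was 23221, 150622 and 21959 bp in ethylene 1, 2 and 3, and 4796, 4594 and 25074.5 bp in air 1, 2 and 3. Only regions on a scaffold with a peak of the list count, so these medians rest on unlike sets of the 421. They cover 397, 264 and 401 regions in ethylene 1, 2 and 3, and 414, 412 and 400 in air 1, 2 and 3. Air 3 lay among the ethylene lists. The rule limits these gaps, since it set aside regions that overlapped m1A of 2 or more of the same lists. The mean log10 gap was 4.63 ± 0.476 after ethylene and 3.91 ± 0.420 in air (SD, n = 3 each), a difference of 0.71 (exact permutation p = 0.3, adjusted p = 0.6). Without ethylene 2 the difference was 0.44. The treatments stood apart without air 3 (0.96) and with m1A peaks at or above the pooled median score of 3100 (0.58). Each had an exact permutation p of 0.1, the smallest that either design allows. The gap moved with list length, since the lists of 15593 and 17573 peaks had the 2 shortest gaps and that of 1013 peaks the longest. In between, the lists of 8059 (ethylene 3), 7526 (ethylene 1) and 6760 peaks (air 3) had gaps of 21959, 23221 and 25074.5 bp. The part of treatment beside list length was not tested.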

How the data were processed

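Immunoprecipitated RNA of petunia corollas was profiled in 10 libraries, 4 titled m6A and 6 m1A. Each deposited list holds 1 score per peak from the authors' own peak calling, with 1 list per library. What scale it has, how peaks were filtered and whether an input library was used were not given in the sources used here. Per the submitters' processing notes, the tools named were MACS 1.4.2, STAR 2.5.1b, cutadapt 1.9.3 and CASAVA 1.4, with no roles stated, and the builds named were human and mouse, whereas the files use Peaxi162 scaffold names. Starts were read as counted from 0, as in BED files, and are printed counted from 1. No genome of these scaffolds was used, so no sequence, gene or transcript position is given. Depth is unknown, and intervals cover counting error only.

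Peaks sharing 1 bp or more were merged per mark. Scores were turned into percentiles within each list, with mean ranks for ties. Gaps are bp between edges, with 0 for an overlap, and log10 of the gap plus 1 was averaged. Regions on scaffolds without a peak of a list have no gap to it. Treatments were compared by exact permutation of library medians, and sets of regions by exact sign flips over libraries, in Python 3.11.15 with numpy 2.4.6 and scipy 1.17.1. P-values were adjusted by the Benjamini-Hochberg method over 6 tests. Scripts were tested on simulated peak lists.

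Named regions were the 10 of highest mean percentile (ties by lowest score, then position), the 5 widest and narrowest, the 5 nearest to and farthest from m1A, the regions of the 3 fullest scaffolds, the 5 closest pairs, and the 5 largest shifts of rank or width in each direction among regions whose treatments did not overlap. Regions and lists were chosen with earlier results of these data known. Alternatives were other m1A recurrence, overlap, merging, score minimum, windows, summaries, left-out libraries and a replicate block.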

Additional observations from a re-analysis of the deposited data

How the results depend on the processing

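Over 67 alternatives to the 6 planned results other than width, 50 kept the direction and the side of the unadjusted threshold, or a count within 1.5 times. Only the 3′ share against regions of 1 list had enough libraries to pass the threshold. For the other tested results the side of the threshold was fixed by the design, so only direction could change. The width difference of 0 has no direction, and its 9 alternatives ran both ways. None of these could pass the threshold with so few libraries. The number of regions was 257 when m1A of 1 or more lists excluded a region, 193 with m6A-titled peaks of score 100 or more and 264 with peaks at or above the pooled median score of each mark, and 420 to 497 under the other merging, overlap and recurrence settings. With 1 library left out it was 422 to 542. The pooled median score was 78.19 for the m6A-titled lists and 3100 for the m1A lists. The ethylene minus air difference in score percentile, 0.0792 points, turned to -3.57 with score 100 or more, to -2.24 when m1A of 1 or more lists excluded a region and to -1.32 with means in place of medians, and was -1.42 to 0.718 with 1 library left out. The cause was not tested. The width difference was -6.50 to 5.50 bp with 1 library left out, and the difference in log10 gap was 0.440 to 0.957. At 0.957, without air 3, and at 0.579, with m1A peaks at or above the pooled median score, the treatments did not overlap (exact permutation p = 0.1, the smallest possible). The percentile difference from core regions with m1A was -15.9 to -13.1 points with 1 library left out and -13.7 to -10.02 under the other settings, nearest to 0 with means. The 3′ share difference from regions of 1 list was 10.4 to 17.6 points with 1 m1A library left out, no longer past the unadjusted threshold because 5 lists allow no exact permutation p under 0.0625, and 10.9 to 16.4 under other windows, midpoints and score minimum. The ethylene minus air difference in 3′ share was -2.99 to 7.86 points with 1 library left out, -0.793 with m1A peaks at or above the pooled median score, 11.2 with a window of 2 kb and 1.33 with 20 kb. Deviations of same-numbered m6A-titled libraries correlated at -0.0441 over 421 regions, and those of m1A libraries at -0.155, -0.0811 and -0.0127. With regions as the units and few libraries, these values cannot show whether replicate numbers pair the libraries. With the replicate number as a block the differences were the same (0 bp, 0.0792 points, 0.714 and 2.93 points), with exact permutation p of 1, 1, 0.5 and 1. The shares of identical edges, widths divisible by 3, minus strand and 3′ side were recomputed under the same settings, an addition made after the data were seen. They stayed within their binomial intervals in 67 of 68 cases, the exception being identical edges at 77.3% with peaks at or above the pooled median score. A score of 3100 or more, where many peaks tie, was reached in 1 or more lists by 51 of the 421 regions, and depth is unknown.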
